A study of Homo sapiens with 6 samples.

Results

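The 8 AP-1 genes FOS, FOSB, FOSL1, FOSL2, JUN, JUNB, JUND and ATF3 were taken by symbol from a deposited table of 58735 genes, in which each symbol had 1 row. RNA was measured in H9, an established human embryonic stem cell line, on day 0, day 2, day 3, day 4, day 6 and day 30 of differentiation into cardiac organoids, which are 3-dimensional cultures containing heart cell types. Each day had 1 library, and per the labels 10 organoids were harvested at a time point. The labels give day as the sole difference between the libraries. All 6 libraries carry the label of an embryonic stem cell, and on day 30 the markers went against it, since 6 pluripotency genes summed to 3.53 FPKM on that day and to 1523 FPKM on day 0. The 4 primitive streak markers summed to 846 FPKM on day 2, and the 10 cardiomyocyte markers to 277 FPKM on day 30 and 359 FPKM on day 6, of which the atrial light chain gene MYL7 alone made 64.0 and 336 FPKM. The 7 fibroblast markers summed to 5924 FPKM on day 30.

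AP-1 is a family of dimeric transcription factors with a basic region that grips DNA and a leucine zipper that joins 2 subunits. JUN proteins pair with each other or with FOS proteins, whereas FOS proteins need a JUN partner, and ATF3 belongs to the ATF/CREB branch but also pairs with JUN proteins. Several members are immediate early genes, transcribed within minutes of a growth factor, stretch or stress signal through kinases of the MAP kinase cascades and without new protein synthesis. In the heart, FOS, JUN and ATF3 are known for induction by load and injury.

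Regions just before transcription starts can hold short DNA words through which such signals reach a gene. They are shown for FOS, FOSB and JUNB, which rose together at day 2, and for JUN and ATF3, whose profiles were the most alike. JUND, which varied least, is shown too. Sites farther upstream than 250 bases were not searched. RefSeq sequence of GRCh38.p14 was found by symbol for 7 of the 8 members, all but FOSL1, with 2 starts for ATF3. The starts are those of RefSeq and can differ from the ends of the gene models in the expression table. The window of JUN thus lies within its span in that table, as do those of FOSL2 and of the second start of ATF3. The ends of the windows of FOS, FOSB and the upstream start of ATF3 also reach into their spans. Each line gives the 250 bases before the RefSeq start, 5′ to 3′ on the gene's strand, and capitals mark TGACG or its reverse complement CGTCA, the longer TGACGTCA that contains it, TGACATCA, and TATAAA. FOS lies on chr14:75278578-75278827 (plus strand), FOSB on chr19:45467746-45467995 (plus), JUNB on chr19:12791236-12791485 (plus), JUN on chr1:58784048-58784297 (minus), the upstream start of ATF3 on chr1:212565157-212565406 (plus) and JUND on chr19:18281623-18281872 (minus).
FOS: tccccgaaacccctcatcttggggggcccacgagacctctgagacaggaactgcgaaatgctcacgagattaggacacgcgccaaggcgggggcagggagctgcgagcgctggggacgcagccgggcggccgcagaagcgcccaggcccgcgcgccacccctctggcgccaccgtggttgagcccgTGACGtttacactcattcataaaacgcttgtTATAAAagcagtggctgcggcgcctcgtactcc
FOSB: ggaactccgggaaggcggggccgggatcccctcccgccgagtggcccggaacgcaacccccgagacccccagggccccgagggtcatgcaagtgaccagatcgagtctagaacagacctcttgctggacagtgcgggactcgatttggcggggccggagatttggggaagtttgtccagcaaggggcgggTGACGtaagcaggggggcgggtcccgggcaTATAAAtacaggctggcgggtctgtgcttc
JUNB: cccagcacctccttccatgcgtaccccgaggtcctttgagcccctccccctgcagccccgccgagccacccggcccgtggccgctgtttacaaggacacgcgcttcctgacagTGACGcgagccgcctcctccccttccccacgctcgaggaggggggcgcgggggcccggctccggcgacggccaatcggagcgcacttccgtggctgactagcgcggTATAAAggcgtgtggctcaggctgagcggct
JUN: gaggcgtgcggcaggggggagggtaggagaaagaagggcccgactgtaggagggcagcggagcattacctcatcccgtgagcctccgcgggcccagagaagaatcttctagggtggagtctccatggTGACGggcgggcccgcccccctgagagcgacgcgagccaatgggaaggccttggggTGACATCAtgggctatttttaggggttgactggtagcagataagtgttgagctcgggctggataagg
ATF3: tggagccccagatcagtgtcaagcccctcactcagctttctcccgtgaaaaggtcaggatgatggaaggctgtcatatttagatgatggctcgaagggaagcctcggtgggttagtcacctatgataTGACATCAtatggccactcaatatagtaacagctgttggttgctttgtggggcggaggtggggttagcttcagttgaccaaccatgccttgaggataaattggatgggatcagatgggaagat
JUND: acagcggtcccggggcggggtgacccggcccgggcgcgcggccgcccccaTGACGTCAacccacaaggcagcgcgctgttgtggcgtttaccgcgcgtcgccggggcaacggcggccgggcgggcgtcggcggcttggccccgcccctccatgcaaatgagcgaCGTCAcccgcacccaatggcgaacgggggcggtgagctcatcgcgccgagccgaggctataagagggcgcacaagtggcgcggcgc
TGACG, on either strand, was present in the windows of 6 members and in 21.2% of the 35116 windows of all genes. FOS, FOSB and JUNB each had TGACG together with a TATAAA, whose first base lay 33 bases before the start in FOS, 30 in FOSB and 31 in JUNB. TATAAA, on either strand, was in 10.7% of all windows and among the members also at the second start of ATF3, 230 bases before it. TGACATCA is the word through which JUN is known to act on its own promoter. It was in the window of JUN, 67 bases before the start, against 2.37% of all windows. It was also at the upstream start of ATF3, 123 bases before it, and not at the second. Which of the 2 starts of ATF3 was used in these libraries is not known. JUND had the full TGACGTCA, 200 bases before its start, a word in 1.65% of all windows. TGAGTCA, the classic AP-1 site, or its reverse complement TGACTCA was in 4.20% of all windows and in none of these 8, which says only that these letters are not in them. These matches describe sequence and were not tested as binding sites.

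Levels are FPKM as deposited, read counts scaled to gene length and to a denominator for each library. Counting intervals of levels are exact 95% Poisson intervals, and those printed after a fold are exact conditional binomial 95% intervals, both from whole reads recovered from the FPKM values. They cover counting error only, and with 1 library per day there is no replicate check and no p-value. A gene was called higher or lower, and is said to have risen or fallen, where log2(FPKM + 1) differed by at least 1 and the FPKM was at least 1 in either library. A gene with at least 1 FPKM in only 1 library of a pair could therefore be called in 1 direction alone. Recovered reads per library lay between 13500887 and 15526924. Since whole organoids were sampled, fewer cells of a type and less RNA per cell cannot be told apart.

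FOS, the founding FOS subunit, lies on chromosome 14 from 75278774 to 75282230 on the plus strand in the table's GRCh38 coordinates. It had 16.6 FPKM on day 0, 42.9 on day 2, 2.24 on day 3, 2.68 on day 4, 0.554 on day 6 and 40.5 on day 30. It was thus high on days 0, 2 and 30 and low on days 3, 4 and 6. FOS rose 2.58-fold at day 2 (interval 2.38 to 2.81) and fell 19.2-fold at day 3 (15.7 to 23.6), which was rank 5 among the falls of 16149 genes measured in that step. It fell again at day 6, to 31 reads against 137 at day 4, a 4.83-fold difference (3.25 to 7.39), and rose 73.2-fold at day 30 (51.3 to 108). The day 2 and day 30 levels had overlapping counting intervals, as had those of day 4 and day 3.

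FOSB, a second FOS subunit and immediate early gene (chromosome 19, 45467995 to 45475179, plus strand), was likewise highest on day 2 and low on days 3, 4 and 6, at lower levels. The counting intervals of days 3, 4 and 6 overlapped each other. It had 1.76 FPKM on day 0, 5.42 on day 2, 0.213 on day 3, 0.228 on day 4, 0.0938 on day 6 and 1.27 on day 30. FOSB rose 3.08-fold at day 2 (2.55 to 3.74) and fell 25.4-fold at day 3 (15.7 to 44.0), to 17 reads against 485 at day 2. On day 30 it had 87 reads against 9 on day 6, 13.5-fold more FPKM (6.81 to 30.6), and it was not called against day 0. The body of FOSB lies inside the span of ERCC1, a DNA repair gene on the opposite strand that had 5.49 to 8.94 FPKM over the 6 libraries, and it is not known whether the counting separated strands.

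FOSL1, which encodes FRA-1, a FOS protein without the strong activation domain of FOS (chromosome 11, 65892049 to 65900573, minus strand), had 3.28 FPKM on day 0, 5.96 on day 2, 1.59 on day 3, 1.21 on day 4, 0 on day 6 and 3.73 on day 30. No read was recovered for it on day 6, where 3 reads, the floor used here for a count of 0, make 0.0920 FPKM and the exact Poisson interval reaches 0.113 FPKM. FOSL1 fell 3.75-fold at day 3 (2.68 to 5.36). It was at least 13.1-fold lower on day 6 than on day 4 and at least 40.6-fold higher on day 30 than on day 6, both taken against the floor of 3 reads in the day 6 library and without the counting error of the other library. The day 30 and day 0 levels had overlapping intervals.

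FOSL2, which encodes FRA-2, lies on chromosome 2 from 28392448 to 28417312, plus strand. It had 5.12 FPKM on day 0, 3.25 on day 2, 2.31 on day 3, 2.13 on day 4, 9.38 on day 6 and 50.9 on day 30. It was thus lowest on days 3 and 4, whose counting intervals overlapped, and on day 6 it was the only 1 of the 8 members called higher. FOSL2 rose 4.40-fold at day 6 (3.83 to 5.08), 5.43-fold at day 30 against day 6 (5.09 to 5.80) and 9.96-fold at day 30 against day 0 (9.10 to 10.9). A short intronic transcript on the same strand, AC104695.3, and the antisense gene FLJ31356 overlap it, at up to 2.73 and 0.486 FPKM. The ratio of FOSL2 to FOS FPKM was 0.308 on day 0, 0.0756 on day 2, 1.03 on day 3, 0.796 on day 4, 16.9 on day 6 and 1.26 on day 30.

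JUN, the founding JUN subunit, lies on chromosome 1 from 58780788 to 58784327, minus strand, and its length in the table equals its span, as for JUNB and JUND, so these 3 genes have no annotated intron counted out. JUN had 48.3 FPKM on day 0, 58.3 on day 2, 40.9 on day 3, 32.0 on day 4, 6.42 on day 6 and 134 on day 30. It stayed between 32.0 and 58.3 FPKM through the first 4 libraries, with no called step. It then fell 4.99-fold at day 6 (4.47 to 5.58) and rose 20.9-fold at day 30 (18.9 to 23.2). Against day 0, JUN was 2.78-fold higher on day 30 (2.65 to 2.92).

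JUNB, a JUN subunit that can restrain JUN and is itself an immediate early gene (chromosome 19, 12791496 to 12793315, plus strand), had 6.88 FPKM on day 0, 15.4 on day 2, 4.37 on day 3, 3.72 on day 4, 3.08 on day 6 and 157 on day 30. The intervals of days 3, 4 and 6 overlapped each other, while the values fell from each of these days to the next and no step between them was called. Such overlap does not show that the levels were equal. JUNB rose 2.24-fold at day 2 (1.88 to 2.68) and fell 3.53-fold at day 3 (2.87 to 4.38). At day 30 it rose 51.1-fold against day 6 (41.7 to 63.2) and 22.9-fold against day 0 (19.7 to 26.7). On log2(FPKM + 1) its difference at day 30 against day 6, 5.28, was above that of FOS, 4.74, but with a pseudocount of 0.1 it was 5.63 against 5.96 for FOS, and on TPM 5.27 against 5.40. The ratio of JUNB to JUN FPKM was 0.143 on day 0, 0.264 on day 2, 0.107 on day 3, 0.116 on day 4, 0.480 on day 6 and 1.17 on day 30. JUNB lies inside the span of HOOK2, on the opposite strand, which had 7.93 to 16.0 FPKM and was lowest on day 30.

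JUND, the JUN subunit known for broad, steady expression (chromosome 19, 18279760 to 18281622, minus strand), was the highest of the 8 members in each of the 6 libraries. It had 76.9 FPKM on day 0, 112 on day 2, 165 on day 3, 167 on day 4, 59.9 on day 6 and 228 on day 30. It varied least, with the highest level 3.81 times the lowest, against 20.9 to 77.5 times for the other 6 members with reads in each library. Its level on day 3 was 1.47-fold that on day 2 (1.41 to 1.54), a difference that did not pass the rule, in the step in which FOS, FOSB, FOSL1 and JUNB fell. JUND fell 2.79-fold at day 6 (2.64 to 2.94) and rose 3.81-fold at day 30 (3.61 to 4.01).

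ATF3, a stress-induced factor that mostly represses as a homodimer (chromosome 1, 212565334 to 212620777, plus strand), had 12.6 FPKM on day 0, 12.1 on day 2, 9.89 on day 3, 8.80 on day 4, 1.56 on day 6 and 66.3 on day 30. As for JUN, no step up to day 4 was called and day 6 was the low point. ATF3 fell 5.64-fold at day 6 (4.59 to 6.99), rose 42.5-fold at day 30 against day 6 (35.1 to 51.9) and was 5.27-fold higher on day 30 than on day 0 (4.87 to 5.72). Of the 28 pairs of members, JUN and ATF3 were the most alike, with a root mean square difference of 0.37 between their log2(FPKM + 1) profiles over the 6 libraries, each centred on its own mean. The profiles of FOSB and FOSL1, both low genes, followed at 0.46. These distances were taken on log2(FPKM + 1) alone, which understates changes of low genes, so the order of the pairs may depend on it.

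**Figure D1:**
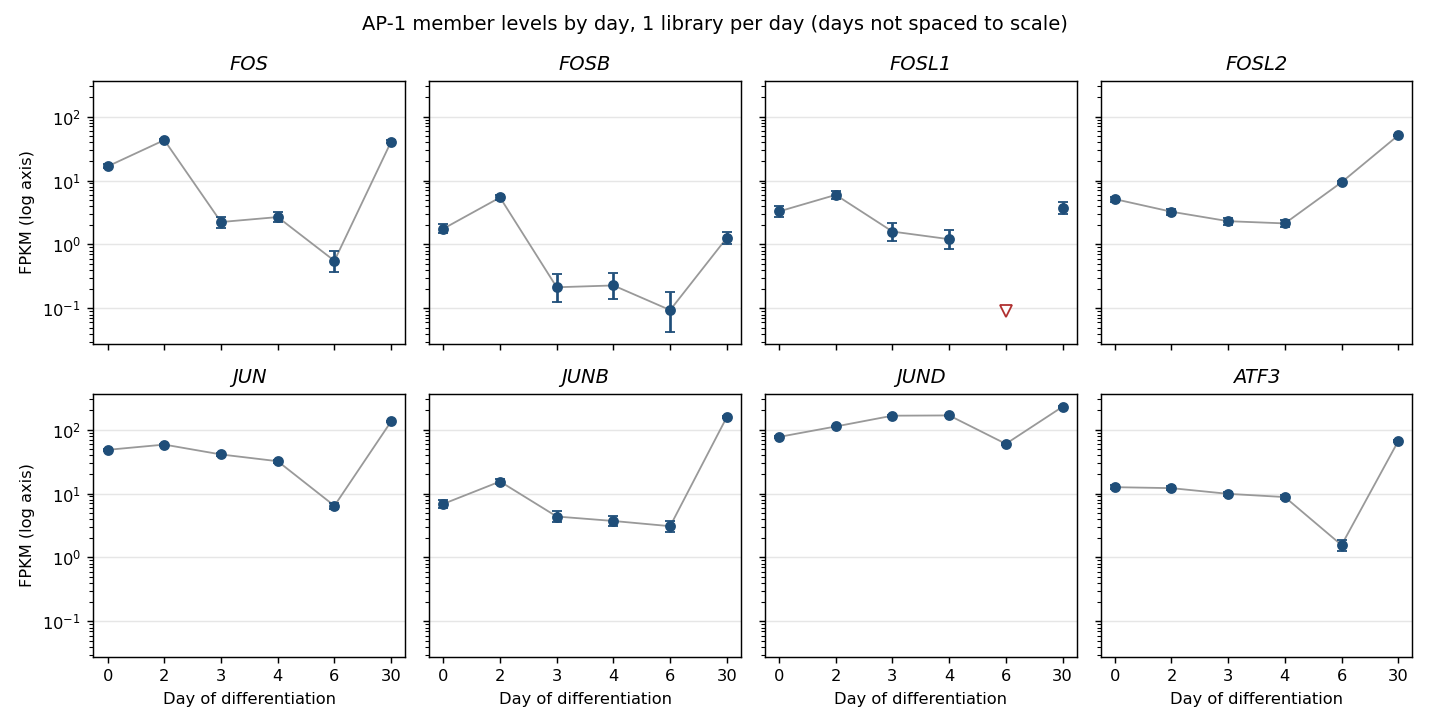
FPKM of each AP-1 member (log axis) by day of differentiation, with 1 library per day and bars for the exact 95% Poisson interval. The open triangle marks FOSL1 on day 6, where 0 reads were recovered, at the level of 3 reads (0.0920 FPKM). All members but JUND are higher on day 2 than on day 3, a difference past the rule for FOS, FOSB, FOSL1 and JUNB. FOSL2 is lowest on days 3 and 4. The other 7 members have their lowest value on day 6, with an interval that overlaps those of days 3 and 4 for FOSB and for JUNB.

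The summed FPKM of the 8 members was 171 on day 0, 255 on day 2, 227 on day 3, 218 on day 4, 81.0 on day 6 and 682 on day 30. The JUN genes made up 77.0% of this sum on day 0, 72.7% on day 2, 92.8% on day 3, 93.1% on day 4, 85.7% on day 6 and 76.2% on day 30. The 4 FOS genes together had 26.8 FPKM on day 0, 57.6 on day 2, 6.35 on day 3, 6.24 on day 4, 10.0 on day 6 and 96.5 on day 30. FOS was 74.6% of the FOS group on day 2, whereas FOSL2 was 52.8% of it on day 30 and 93.5% on day 6. JUND was 43.9% of the JUN group on day 30, when JUNB stood above JUN, and 86.3% on day 6. RNA levels do not give the amounts of the proteins or of their dimers.

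**Figure D2:**
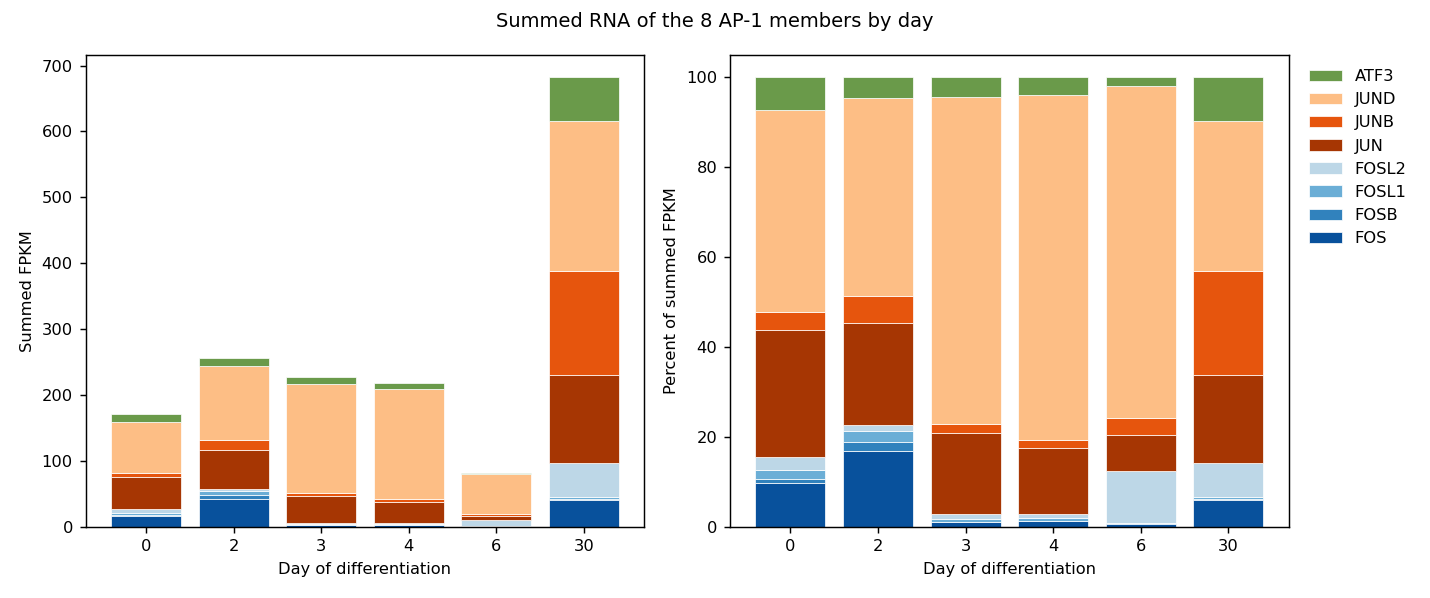
Summed FPKM of the 8 AP-1 members by day (left) and the percent of that sum in each member (right), with 1 library per day. The sum is highest on day 30 (682 FPKM) and lowest on day 6 (81.0 FPKM), JUND takes the greatest share on each day, and the FOS genes make up 2.87% of the sum on day 4 and 2.80% on day 3.

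At day 2 against day 0, the step out of the stem cell state, 3 of 8 members rose (FOS, FOSB and JUNB) and none fell, beside 8.78% of 16019 genes higher and 7.75% lower. Their median log2 difference was 0.62, against -0.03 over all genes measured. FOSL1 had 5.96 FPKM on day 2 and 3.28 on day 0, and JUND 112 and 76.9, neither past the rule. Among 16 measured of 20 other immediate early genes, 5 rose and 2 fell, with a median of 0.19. The zinc finger factor EGR3 had 4.48 FPKM on day 2 and 0.298 on day 0, IER5 14.5 and 3.06, and BTG2, which slows proliferation, 26.2 and 6.84. IER3 and the orphan receptor NR4A1 were the others that rose, whereas ARC, with 1.45 and 4.12, and the kinase gene SGK1, with 0.746 and 2.61, fell. Of 17 measured bZIP partners JDP2, a repressor known to pair with JUN proteins, rose, with 2.02 FPKM on day 2 and 0.265 on day 0. Among 11 DUSP genes, whose phosphatases switch off MAP kinases, DUSP4 rose and DUSP16 fell, and of 19 MAP kinase cascade genes MAP2K6 fell, to 2.43 FPKM on day 2, against 6.55 on day 0. Of 10 heat shock genes HSPA1A rose, with 14.4 FPKM on day 2 and 6.13 on day 0, and the list median was 0.43. The 4 primitive streak markers all rose in this step and 2 of 6 pluripotency markers fell, and the part of these lists in the result was not tested. SRF, the factor that drives immediate early promoters, had 35.0 FPKM on day 2 and 21.2 on day 0 and was not called, nor were its 5 cofactors.

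At day 3 against day 2, 4 of 8 members fell (FOS, FOSB, FOSL1 and JUNB) and none rose, beside 4.98% of 16149 genes lower and 7.13% higher. The members' median was -0.96, against -0.02 over all genes. The other immediate early genes fell in 7 of 15 measured and rose in none, with a median of -0.92. EGR1 had 4.27 FPKM on day 3 and 112 on day 2, EGR2 0.151 and 6.36, and EGR3 0.718 and 4.48. None of the 20 measured MAP kinase cascade genes and none of the 6 genes of SRF and its cofactors was called in this step, and of 16 other bZIP partners none was. Of 8 measured textbook AP-1 targets, CCND1 and SPP1 fell and none rose, with a median of -0.26. Among 11 DUSP genes DUSP10 rose, to 14.1 FPKM on day 3 against 5.92 on day 2, and DUSP2 fell. Of 10 heat shock genes, 2 fell, HSPH1 and DNAJA1, with a list median of -0.90, and their part in the result was not tested.

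At day 4 against day 3, none of the 7 measured members was called, beside 7.82% of 16376 genes called in either direction, 4.23% higher and 3.59% lower. FOSB was under 1 FPKM in both libraries. The greatest difference was that of JUN, at 32.0 FPKM on day 4 against 40.9 on day 3, or -0.34 on the log2 scale. In the same step JDP2 rose to 4.73 FPKM on day 4, against 1.29 on day 3. Of 10 heat shock genes HSPA1A, HSPA1B and DNAJB1 rose, and of 12 other immediate early genes CYR61 and EGR1 fell. Of 10 measured DUSP genes 2 rose and none fell. DUSP6, whose phosphatase acts on ERK, rose to 54.6 FPKM on day 4, against 21.1 on day 3, and DUSP2 to 2.69, against 0.758. Of 10 measured textbook AP-1 targets, CD44 and PLAU rose and none fell, with a median of 0.57.

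At day 6 against day 4, 5 of 7 measured members fell (FOS, FOSL1, JUN, JUND and ATF3) and 1, FOSL2, rose, beside 6.71% of 16727 genes lower and 5.51% higher. The median was -1.24, against -0.01 over all genes. FOSL2 was rank 250 among the rises, and JUN rank 136 among the falls. JUNB was not called, with 97 reads on day 6 and 107 on day 4. Of 11 DUSP genes 3 fell and DUSP9 rose, to 4.38 FPKM on day 6, against 0.638 on day 4. DUSP8 had 0.764 FPKM on day 6 and 11.7 on day 4, DUSP10, whose phosphatase acts on JNK and p38, 0.814 and 9.16, and DUSP5 12.7 and 43.3. The small MAF genes MAFF, with 1.23 FPKM on day 6 and 4.20 on day 4, and MAFG, with 10.0 and 25.4, were the 2 of 15 other bZIP partners that fell. Of 10 measured textbook targets 4 fell (SPP1, CD44, PLAU and IL6) and the heme oxygenase gene HMOX1 rose, and CD44, a hyaluronan receptor, had 0.243 FPKM on day 6 and 3.29 on day 4. The MAP kinase genes had no call among 20 measured. Of 13 other immediate early genes IER3, ZFP36 and EGR3 fell and KLF2 rose, with a median of -0.48. Of 10 heat shock genes HSPA1A fell to 8.76 FPKM on day 6, against 25.1 on day 4, and HSPA1B to 8.49, against 27.0. Fibroblast markers rose in 5 of 5 measured and cardiomyocyte markers in 4 of 6, and primitive streak markers fell in 3 of 4. The part of these in the AP-1 result was not tested.

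**Figure D3:**
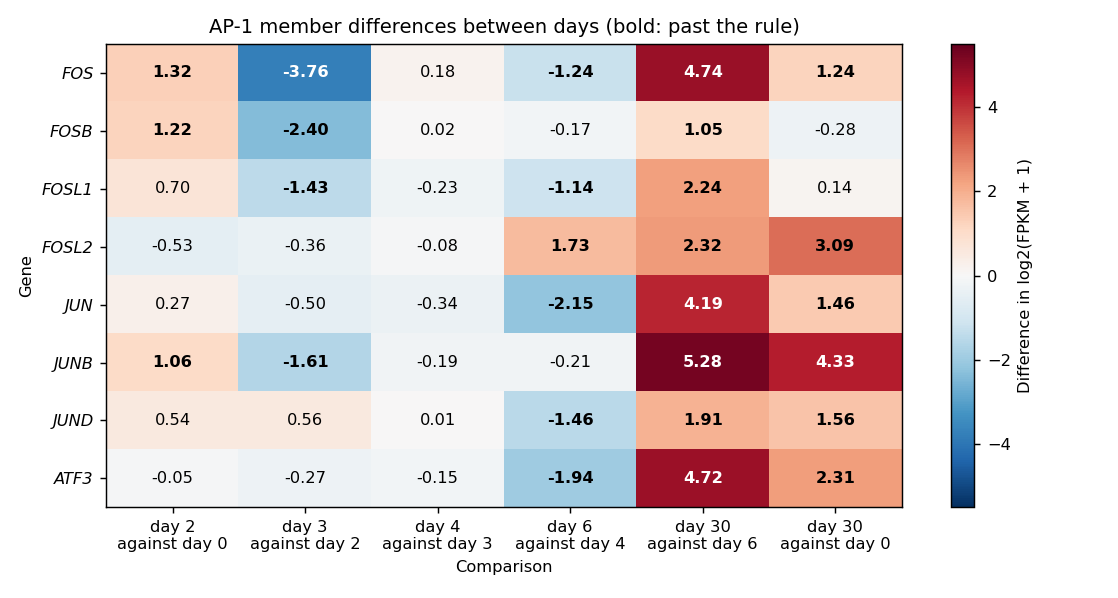
Difference in log2(FPKM + 1) of each AP-1 member in the 6 comparisons, later day minus earlier day, with values past the rule in bold. Day 30 against day 6 has 8 of 8 members higher, day 4 against day 3 has none called, and FOSL2 alone is higher at day 6 against day 4.

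At day 30 against day 6, 8 of 8 members rose, beside 36.3% of 18023 genes called in either direction, 21.0% higher and 15.3% lower. FOS, FOSB and FOSL1, under 1 FPKM on day 6, were measured through day 30 alone and could not have been called lower. The members' median was 3.26, against 0.08 over all genes, and the differences ran from 1.05 for FOSB to 5.28 for JUNB. With a denominator of total recovered reads the difference of FOSB was 0.89 and not past the rule. JUNB was rank 55 among the rises, FOS rank 82 and ATF3 rank 87. Of 20 other immediate early genes, 18 had at least 1 FPKM on day 30 and 11 on day 6. The 15 of these 18 that rose included ZFP36, whose protein destabilises messenger RNA, with 163 FPKM on day 30 and 6.82 on day 6. IER3, a gene linked to cell survival, had 203 and 9.51, and KLF2, a factor known from endothelium under flow, 73.5 and 4.62.

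The other AP-1 partners and regulators moved in part. Of 19 measured bZIP partners 12 rose and none fell in this step, with a median of 1.25, MAFF had 32.3 FPKM on day 30 and 1.23 on day 6, and MAF 45.0 and 2.13. Of the 40 other genes that the table classes as bZIP, a class looked up after values were seen, 20 of 35 measured rose and 2 fell, CREB3L4 and TEF. Among 11 DUSP genes 7 rose, led by DUSP1, an early response gene, with 209 FPKM on day 30 and 4.04 on day 6. DUSP6 went the other way, with 4.95 FPKM on day 30 and 32.3 on day 6. Among 21 MAP kinase cascade genes 5 rose (MAPK13, MAP3K5, MAPK7, MAP2K1 and MAPK11) and 1 fell, with a median of 0.51, and the p38 activator MAP2K6 had 0.151 FPKM on day 30 and 4.20 on day 6. Of SRF and its 5 cofactors, ELK1, MRTFA and ELK3 rose, and ELK1, which binds beside SRF, had 45.3 and 12.8 FPKM, whereas SRF itself had 14.3 and 18.3 and was not called. Of 6 measured genes that act on the turnover of AP-1 proteins or messages, 1 rose, ZFP36L1, with 519 FPKM on day 30 and 33.8 on day 6, and the ubiquitin ligase gene FBXW7 had 5.68 and 2.46 and was not called.

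Of 18 textbook AP-1 targets, 16 were measured at day 30 against day 6, of which 14 rose and none fell, with a median of 4.47. On day 30, 16 had at least 1 FPKM, but on day 6 only 6 had. The rest of the 16 were measured through day 30 alone and could not have been called lower, which also raises the median. Collagenase MMP1 was listed at 0 FPKM from day 0 to day 6 and had 56.5 on day 30. The chemokine CXCL8 had 123 FPKM on day 30 and 0.0254 on day 6, the prostaglandin synthase PTGS2 139.7 and 0.0549, and IL6 36.8 and 0. The protease inhibitor TIMP1 had 1282 FPKM on day 30 and 38.3 on day 6. CCND1, the cyclin gene, had 24.7 on day 30 and 14.0 on day 6, and the filament gene VIM 122 and 136, neither called. At day 2, when FOS, FOSB and JUNB rose, VIM rose among 11 measured targets and SPP1 and PLAU fell, with a median of -0.50.

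Other values moved with day 30. Of 10 heat shock genes 4 rose against day 6 (HSPA1A, HSPA1B, DNAJB1 and HSPB1) and none fell. The near-identical genes HSPA1A and HSPA1B, whose reads may be shared, had 145 and 169.8 FPKM on day 30 and 8.76 and 8.49 on day 6. The 10 genes summed to 1062 FPKM on day 30 and 512 on day 6, and to 1197 on day 0. Fibroblast markers rose in 6 of 7 measured, with summed levels of 5924 and 653 FPKM, and cardiomyocyte markers in 7 of 10, with 277 and 359, while MYL7 fell. The share of reads from mitochondrial genes was 1.91% on day 30 and 3.86% on day 6. Among 5 blood and macrophage markers, CSF1R, CD14 and TYROBP reached 1.16 to 4.98 FPKM on day 30, while CD68 was at 0 and PTPRC, the pan-leukocyte gene, had 0.0618. The part of these in the AP-1 result was not tested.

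Between day 30 and day 0, 6 of 8 members were higher (FOS, FOSL2, JUN, JUNB, JUND and ATF3) and none lower, beside 25.9% of 17874 genes higher and 19.1% lower. The median was 1.51, against 0.13 over all genes. FOSB had 1.27 FPKM on day 30 and 1.76 on day 0, and FOSL1 3.73 and 3.28. FOS was 2.44-fold higher on day 30 (2.24 to 2.66), and with a denominator of total recovered reads its log2 difference was 0.99 and just short of the rule. The other immediate early genes did not all follow, with 11 of 19 measured higher and 3 lower. EGR1 had 6.81 FPKM on day 30 and 72.3 on day 0, IER2 14.5 and 30.8, and ARC 0.758 and 4.12. This comparison and the one with day 6 share the day 30 library.

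**Figure D4:**
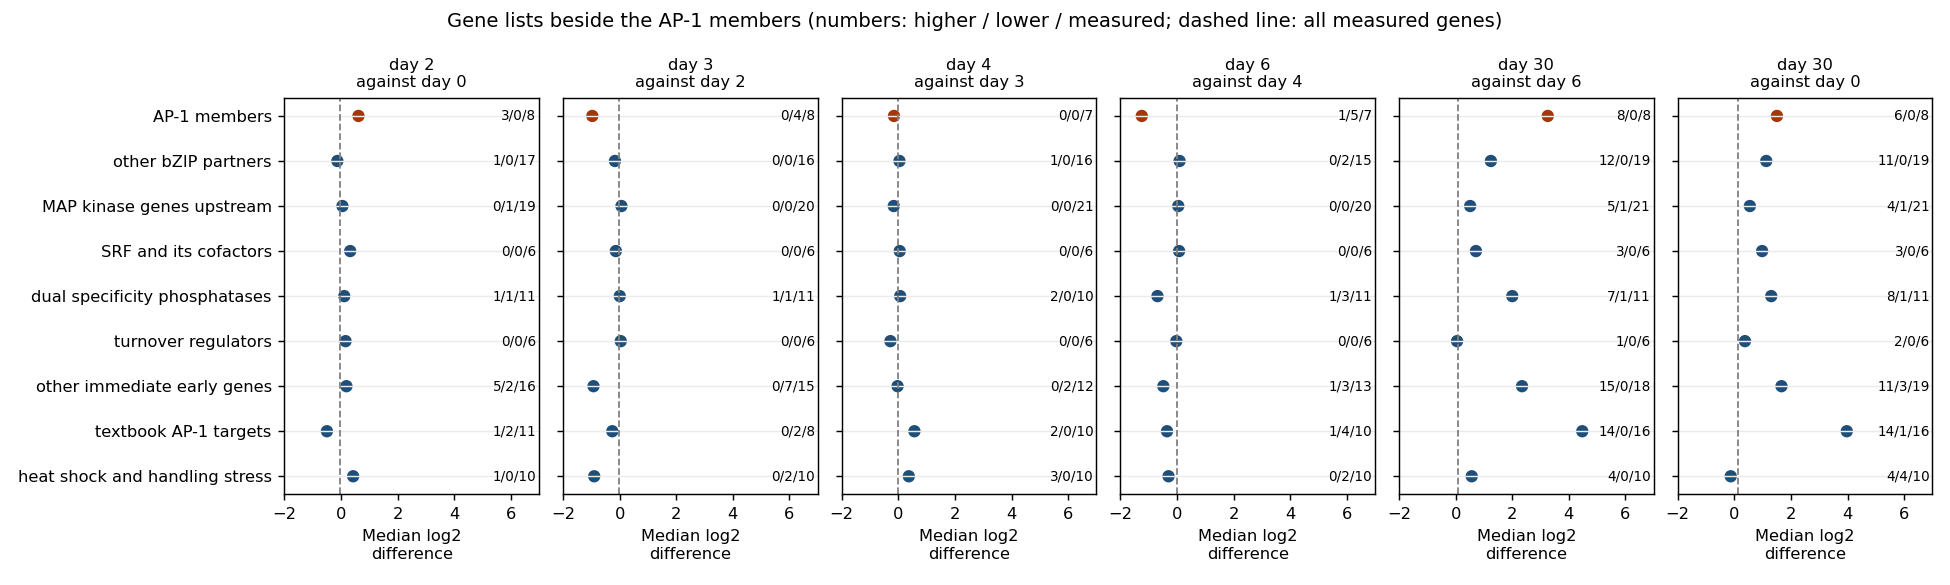
Median difference in log2(FPKM + 1) of the AP-1 members (red) and of 8 gene lists (blue) in the 6 comparisons, later day minus earlier day, with the numbers called higher, called lower and measured at the right. The dashed line is the median of all genes measured. At day 30 against day 6 the textbook targets stand at 4.47, the AP-1 members at 3.26 and the MAP kinase genes at 0.51. Genes under 1 FPKM on day 6 entered these medians through day 30 alone and could not have been called lower.

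**Figure D5:**
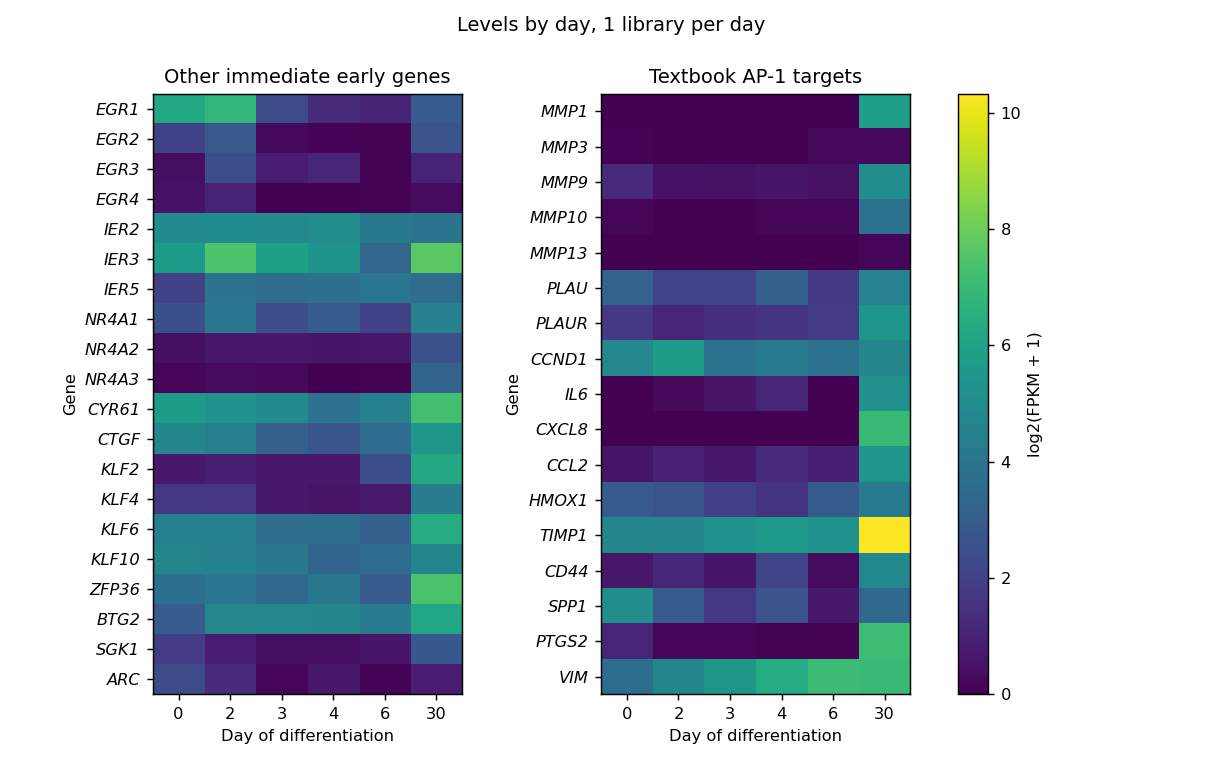
Level of 20 other immediate early genes (left) and of textbook AP-1 targets, 1 of the list left out (right), as log2(FPKM + 1) by day, with 1 library per day. EGR1 is bright on days 0 and 2 and dim on day 30, whereas IER3 and ZFP36 are bright on day 30, and MMP1, CXCL8, IL6 and PTGS2 are bright on day 30 alone.

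The genes with profiles most like each member were sought among 9718 protein-coding genes outside the 8 with at least 5 FPKM in 1 library, by the root mean square difference of log2(FPKM + 1) over the 6 libraries after centring each gene on its mean. The nearest to ATF3 were MAFF at 0.28 and the adhesion receptor gene ICAM1 at 0.31, which had 56.7 FPKM on day 30 and 1.47 on day 6. The nearest to JUN were the elongation factor gene ELL2 at 0.37 and IER3 at 0.47, and to JUNB the keratin gene KRT20 and DUSP1, both at 0.33. FOS lay farther from its nearest genes, the phospholipase PLA2G2A at 0.57 and EGR2 at 0.72. For FOSB they were CCND1 at 0.30 and the purine enzyme gene PNP at 0.39, and for FOSL1 the TWEAK receptor TNFRSF12A at 0.20 and the sulfotransferase CHST7 at 0.24. FOSL2 was nearest to the desmosomal cadherin DSC3 and the guanylate cyclase subunit GUCY1B1, both at 0.20, and JUND to RAB3IL1 and WBP2, both at 0.21. With a pseudocount of 0.1, 4 of these 16 genes were kept, namely MAFF, ICAM1, EGR2 and WBP2.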

How the data were processed

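The authors deposited 1 table of FPKM values, per the file headers, for 58735 genes and 6 libraries, matched to the samples by the day in the column name. Poly-A RNA was purified with poly-T beads and reverse transcribed from random hexamers, per the labels' protocols. CASAVA, HISAT2 and featureCounts 1.5.0-p3 are named in the submitters' processing notes. The sources used here give neither their settings nor the genome build or the use of strand. All 58735 gene positions equal those of GENCODE release 29 on GRCh38. Multiplying FPKM by gene length and dividing by the value of 1 read gave whole reads for 100% of values above 0, to within 0.001. The library denominators behind the deposited FPKM were between 0.826 (day 30) and 1.12 (day 6) times the read totals.

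Differences were taken on log2(FPKM + 1), which understates changes of low genes, over all genes with at least 1 FPKM in either library. Without replicates no test was run. Reads are not counted molecules, so intervals may be too narrow. The calculation was checked on simulated reads. The members, lists and comparisons were chosen with earlier results of these data known. Named genes are the 8 members, their 2 nearest genes each, and, of 8 gene lists, up to 3 members with the largest called difference and any that went against them. A few further list members were named after their values were seen, and 1 textbook target is counted in its list but not reported by itself here. Of 10 marker lists, the smooth muscle list lost RGS5, which has several rows. At day 30 against day 6 the other smooth muscle markers rose in 4 of 4 measured and epicardial markers in 1 of 4, and none of these fell. Endothelial markers rose in 0 of 5 and fell in 2, and endoderm and liver markers rose in 2 of 6 and fell in 3. Neural markers stayed under 1 FPKM. Promoters came from RefSeq. Python 3.11.15, pandas 2.3.3 and scipy 1.17.1 were used.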

Additional observations from a re-analysis of the deposited data

How the results depend on the processing

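With 1 library per day, depth limits the low members most, FOSB at 9 to 20 reads on days 3 to 6 and FOSL1 at 0 reads on day 6, and no setting here replaces a replicate. No paired analysis was possible because each day had 1 library. No called difference of a member changed sign under the pseudocount of 0.1 or the 3 other scalings. Of 114 alternative values of the counts and shares, 90 stayed close to the main ones, all of them counts and some of them 0 in both. Close did not mean equal, since 6 members higher at day 30 against day 6, beside 8 in the main result, were still taken as close. The share of the JUN genes moved beyond its counting error in all 6 libraries, both by reads and without ATF3. Among the differences of single members and the nearest genes, 147 values stayed and 46 moved. Scaling by total recovered reads moved the median of all genes at day 30 against day 6 to -0.33, against 0.08 as deposited. It left 7 members higher there, beside 2569 of 17861 genes, and 5 higher at day 30 against day 0, beside 3729 of 17260. When TPM scaling was used, 6 members were lowest on day 6, since JUND then was lowest on day 0.

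Under a rule of a difference of 2, 0 members were higher at day 2, 2 were lower at day 3, and 0 were higher and 1 lower at day 6. That rule left 6 higher at day 30 against day 6, without FOSB and JUND, and 3 higher at day 30 against day 0. A minimum of 5 FPKM left 3 lower at day 6, since FOS and FOSL1 were no longer measured. It left 6 higher at day 30 against day 6, since FOSB and FOSL1 were no longer measured. Where a counting interval excluding 1 made the call, 6 members were higher and 1 lower at day 2, and 1 higher and 7 lower at day 3. By the same rule 1 was lower at day 4 and 1 lower at day 30 against day 0. The share of all genes called was not computed under any of these rules, so these counts have no background beside them. The share of the JUN genes, in order of day, was 67.5%, 63.7%, 87.1%, 87.2%, 64.9% and 60.4% by reads without gene length, and 83.1%, 76.3%, 97.1%, 97.0%, 87.4% and 84.3% without ATF3.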
